A study of Rattus norvegicus with 2 samples.

Results

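The Krüppel-like factors described here were Klf2, Klf4, Klf5, Klf6, Klf9, Klf10 and Klf15, measured in skeletal muscle of diabetic rats. They are 7 of the 14 Klf genes that had a named probe, and 7 of 13337 genes with a named probe in all. They were chosen by gene symbol with their EA and Mock signals and detection p-values in these data known, so the values below describe them and test nothing. The EA sample was muscle after electroacupuncture, that is, electrical stimulation through acupuncture needles, and the other sample was labelled Mock. All animals were male Wistar rats of 8 to 10 weeks made diabetic with streptozotocin (STZ), which destroys the beta cells of the pancreas. The protocol text names the ST36 point on the lower leg, 5 min of needling and then 60 min of stimulation at 15 Hz and 10 mA. Both samples carry that same text, so the labels do not say what was done to the Mock animals, how many rats or which muscle stood behind a sample, or when it was taken. Each group had 1 Illumina bead array, in which each probe gives a brightness for a transcript, so no difference here has a replicate check, a standard error or a p-value. The treatment and any other way in which the samples differed cannot be told apart.

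Krüppel-like factors are transcription factors that bind GC-rich and CACCC-type DNA through zinc fingers at their C-terminal end. Several are known as immediate early or early genes, switched on within minutes to hours by stretch, blood flow, growth factors or hormones. In skeletal muscle the family is known from mouse work for setting how fibres use fat, amino acids and glucose, while Klf2 and Klf4 are best known from the endothelium, the cells that line blood vessels.

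Of the 7 genes, Klf4 and Klf2 were higher in EA muscle, by nearly the same amount after background correction and quantile normalization. Klf6 was higher by less, Klf9 and Klf10 were nearly equal on the arrays, and Klf15 and Klf5 were somewhat lower in EA muscle. All 7 were detected on both arrays, at a detection p under 0.01. This p is the share of an Illumina array's negative controls that are at least as bright as the probe. Each had 1 probe, so taking the brightest probe of a gene made no choice among them. In EA muscle 2 of the 7 were at least 2-fold higher, as were 2.08% of the 5047 genes detected on both arrays, and 0 of the 7 were at least 2-fold lower, as were 0.456% of these genes. At 1.5-fold, 3 of the 7 were higher and 0 lower, against 6.26% and 3.86% of all genes. The median of the 7 was 0.02 (log2, EA minus Mock), against -0.06 for all genes, so the list was split and did not move as a block.

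All 10 measured markers of skeletal muscle fibres were detected on both arrays, as the tissue label calls for. Fibre-type markers stood apart between the samples, however: Myh7, the slow myosin, differed by -3.60 and Tnnc1, the slow troponin C, by -3.24 (log2, EA minus Mock), Myh2 of fast oxidative fibres by -0.99 and Myh4 of the fastest fibres by 0.70. The part of fibre type in the Klf differences was not tested. Of 22523 probes, 32.1% were detected with the EA sample and 30.7% with the Mock sample. The background, taken as the signal at which the detection p is 0.5, was 122.1 on the EA array, against 117.1 on the Mock array. The only measure of technical scatter came from 60 other genes with a pair of detected probes, whose differences scattered with an SD of 0.25 (log2) per probe. In whole muscle, a change in the number of cells of a type and a change in RNA per cell cannot be told apart.

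**Figure D1:**
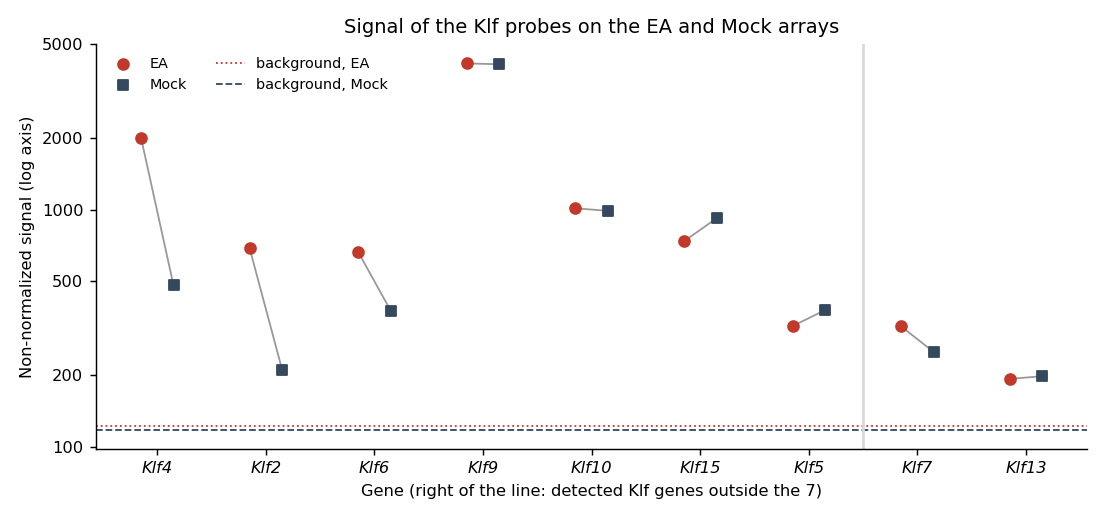
Non-normalized signal (log axis) of each Klf probe detected on both arrays, with the EA array as circles left of the Mock array as squares and dotted and dashed lines at each array's background of 122.1 and 117.1. Klf4, Klf2 and Klf6 slope down towards Mock, Klf9 and Klf10 are nearly level, and Klf15 and Klf5 slope up; Klf7 and Klf13 lie outside the 7. Signals of different probes cannot be ranked against each other.

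Klf4, known as a reprogramming factor and as a regulator of epithelium, vessel wall and endothelium, had a non-normalized signal of 2014 on the EA array, against 479 on the Mock array. These were 16.5 and 4.09 times the background of the EA and Mock arrays, so both values were clear of it. After background correction and quantile normalization the log2 signals were 10.89 on the EA array, against 8.60 on the Mock array, a difference of 2.29 or 4.89-fold. It ranked 11 from the highest among the 5047 genes. The authors' deposited table gave 2674 on the EA array, against 773 on the Mock array, which is 3.46-fold.

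Klf2, which blood flow induces in endothelium and which keeps T lymphocytes quiescent, had a signal of 689 on the EA array, against 211 on the Mock array. The Mock value lay at only 1.80 times background, the EA value at 5.64 times. The log2 signals were 9.15 on the EA array, against 6.87 on the Mock array, a difference of 2.28 or 4.86-fold, at rank 12. The size of this fold depended on how the background near the Mock value was handled: it was 3.03-fold without background correction and 6.03-fold with the background level simply subtracted. The authors' deposited table gave 1039 on the EA array, against 347 on the Mock array, a difference of 1.58. The direction was the same in all of these. After background correction and quantile normalization the gap of 0.01 between Klf4 and Klf2 was far inside the probe scatter. This near match depended on the processing. Without background correction Klf2 was at 1.60 and Klf4 at 2.02. With the background level subtracted they were at 2.59 and 2.39, in the reverse order.

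Klf6, a broadly expressed factor induced by tissue injury and known as a tumour suppressor, had a signal of 663 on the EA array, against 374 on the Mock array. Its log2 signals were 9.08 on the EA array, against 8.13 on the Mock array, so it was 1.93-fold higher, with a difference of 0.95 and rank 120. It therefore lay just short of 2-fold, and 97.6% of genes had a lower difference. Subtracting the background level put it at 2.10-fold, and the authors' deposited table at 1.65-fold. It stood 1.33 below Klf2 and 0.93 above Klf9 on the log2 scale. These gaps are 3.83 and 2.65 times 0.35, the SD of a gap between a pair of probes from the probe scatter. That scatter comes from the same 2 arrays, holds no variation between animals or arrays and was not matched for signal. The multiples are therefore a scale for reading the gaps and not a test of them.

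Klf9, which thyroid hormone and glucocorticoids induce, had a signal of 4141 on the EA array, against 4106 on the Mock array. Its log2 difference was 0.02, or 1.01-fold. Klf10, first described as an early gene induced by TGF-beta, had a signal of 1013 on the EA array, against 989 on the Mock array, with a difference of 0.00 and a ratio of 1.00. Both signals were well above background on each array, at 33.9 and 35.1 times for Klf9 and 8.30 and 8.44 times for Klf10 on the EA and Mock arrays. With 1 array per group this does not show that either gene was unchanged by the treatment, only that these arrays gave nearly the same value.

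Klf15, which in mouse muscle drives the breakdown of amino acids and which glucocorticoids and fasting induce, had a signal of 735 on the EA array, against 920 on the Mock array. Its log2 signals were 9.27 on the EA array, against 9.69 on the Mock array, a difference of -0.42, so it was 1.34-fold lower in EA muscle. Klf5, a factor of growing epithelium and smooth muscle that in mouse muscle also acts on genes of lipid oxidation, had a signal of 323 on the EA array, against 377 on the Mock array. Its difference was -0.45, or 1.36-fold lower. Of all genes, 79.7% lay closer to 0 than Klf15 and 82.0% closer to 0 than Klf5, and 10.2% and 8.74% had a lower difference. Neither reached 1.5-fold. The gap of 0.03 between Klf15 and Klf5 and the gap of 0.02 between Klf9 and Klf10 were well inside the probe scatter, and that of 0.42 between Klf10 and Klf15 was 1.20 times the SD of such a gap.

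**Figure D2:**
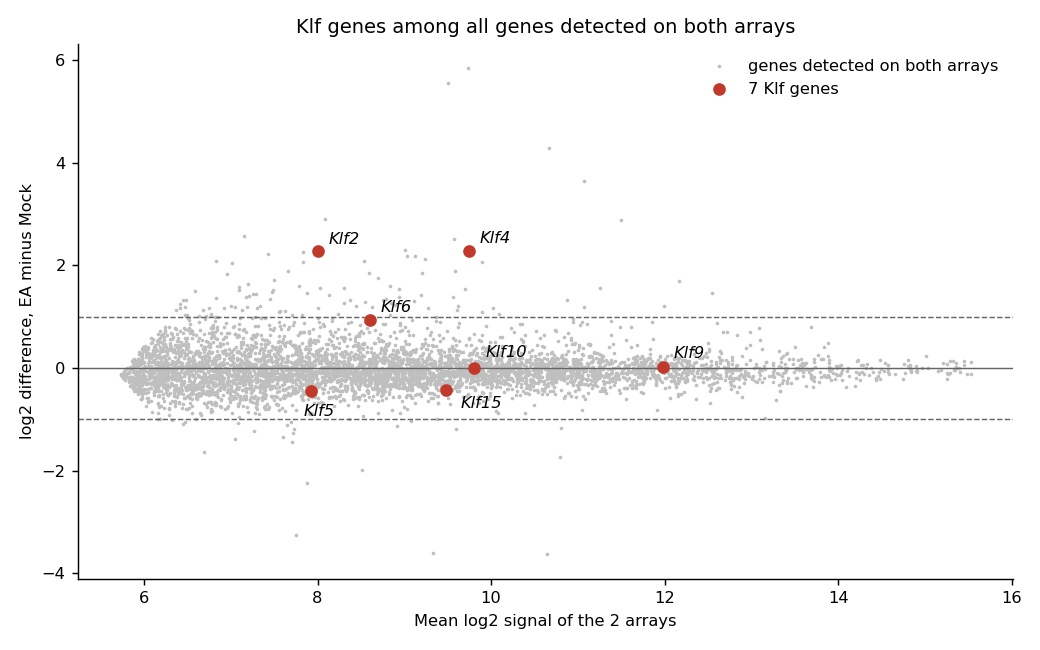
Difference in log2 signal (EA minus Mock) against the mean log2 signal of both arrays, for the 5047 genes detected on both (grey) and the 7 Klf genes (red), with dashed lines at 2-fold. Klf4 at 2.29 and Klf2 at 2.28 lie far above the bulk, Klf6 lies just under the upper dashed line, and the other members lie within the bulk.

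Among the Klf genes outside the 7, Klf7 and Klf13 were also detected on both arrays. Klf7, known for roles in neurons, had a signal of 322 on the EA array, against 251 on the Mock array, a difference of 0.41. Klf13 had a signal of 193 on the EA array, against 198 on the Mock array, a difference of -0.36 after normalization. Over all 9 Klf genes detected on both arrays, Klf2 and Klf4 were still the 2 past 2-fold. The remaining 5 Klf genes with a probe, Klf1, Klf3, Klf11, Klf12 and Klf14, were detected on neither array, as were all 6 probes of the related Sp family (Sp1, Sp2, Sp4, Sp5, Sp6 and Sp7), so no difference is given for them.

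The genes whose difference lay nearest to that of a member were found over the same 2 arrays, among all genes detected on both. Background-corrected, quantile-normalized values were used. For Klf2 they were Klf4, with a gap of 0.01, and the salt-inducible kinase Sik1, at 2.26 with a gap of 0.02. For Klf4 they were Klf2 and Ddit3, which protein misfolding stress induces, at 2.30 with a gap of 0.01. For Klf6 they were Litaf at 0.94 and the G protein subunit Gnai3 at 0.94. In the crowded range near 0 the nearest genes say little: they were Engase and Eef1akmt2 for Klf9, Dnal1 and Yars2 for Klf10, Eef1e1 and Mapk1ip1 for Klf15, and Ntf4 and Eef2k for Klf5.

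Upstream sequence is shown for Klf6, which was higher in EA muscle, beside Klf5, which was lower, and Klf9, which was nearly equal, to set the differing members side by side. Of the 7 genes, 5 matched RefSeq's windows of 250 bases before to 50 after a start site (build GRCr8), and these were Klf4, Klf5, Klf6, Klf9 and Klf15. The start used for Klf4 lay 590 bases and that for Klf15 363 bases inside the annotated gene, so their windows are not printed. Capitals mark every match to the motifs searched on both strands: the CArG box bound by serum response factor, the Mef2 site, TGACG (the core of a cyclic AMP response element), its full palindrome TGACGTCA, TGANTCA (AP-1), CACCC and GGGCGG (sites of Klf and Sp factors), and TATAAA.
Klf6, chr17:69458429-69458728, minus strand: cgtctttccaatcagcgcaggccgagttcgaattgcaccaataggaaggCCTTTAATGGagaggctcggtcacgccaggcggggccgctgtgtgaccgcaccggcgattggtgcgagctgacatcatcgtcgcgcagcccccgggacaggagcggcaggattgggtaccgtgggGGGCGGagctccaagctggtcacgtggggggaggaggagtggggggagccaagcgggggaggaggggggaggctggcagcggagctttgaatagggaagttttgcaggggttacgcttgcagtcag
Klf5, chr15:82471831-82472130, plus strand: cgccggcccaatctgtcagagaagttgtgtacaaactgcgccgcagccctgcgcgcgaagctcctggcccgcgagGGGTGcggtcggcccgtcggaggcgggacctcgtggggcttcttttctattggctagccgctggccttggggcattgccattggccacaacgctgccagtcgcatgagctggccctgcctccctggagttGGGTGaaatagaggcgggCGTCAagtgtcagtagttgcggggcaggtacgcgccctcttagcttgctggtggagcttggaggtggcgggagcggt
Klf9, chr1:230126396-230126695, plus strand: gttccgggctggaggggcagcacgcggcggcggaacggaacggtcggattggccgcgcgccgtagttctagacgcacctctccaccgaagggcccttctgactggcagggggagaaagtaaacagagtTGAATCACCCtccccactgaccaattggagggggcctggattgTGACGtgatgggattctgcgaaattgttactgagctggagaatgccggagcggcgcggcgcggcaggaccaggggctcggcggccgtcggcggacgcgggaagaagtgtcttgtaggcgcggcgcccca

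The Klf6 window held 1 CArG box, CCTTTAATGG, at bases -201 to -192 from the start, and 1 GGGCGG at -76 to -71. Over all 33469 windows of this length, 1.64% held a CArG box and 33.1% a GGGCGG. The Klf5 window held 2 CACCC, at -175 to -171 and -45 to -41, both on the other strand, and 1 TGACG at -27 to -23 on the other strand. The Klf9 window held 1 TGANTCA at -122 to -116 that overlapped its 1 CACCC at -117 to -113, and 1 TGACG at -79 to -75. In all windows CACCC occurred in 54.9%, TGACG in 21.2% and TGANTCA in 7.33%. The Mef2 site (3.29% of all windows), TGACGTCA (1.83%) and TATAAA (14.2%) were in none of the printed windows. The printed windows were 64.7% GC for Klf6 and 65.3% for Klf5 and Klf9, against a median of 51.7%. These are matches of letters, not sites shown to be bound.

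Around Klf2, Klf4 and Klf6, other immediate early genes, many of them transcription factors, were set beside them, as genes switched on by the same kinds of stimulus. Of 26 such genes listed, 20 had a probe and 12 were detected on both arrays. Of those 12, 9 were at least 2-fold higher in EA muscle and 0 at least 2-fold lower, where 2.08% and 0.456% of all genes were. Their median was 1.88, against -0.06 for all genes. A further 4 were detected on the EA array and not on the Mock array, and 4 (Egr3, Nr4a1, Nr4a2 and Maff) on neither. That median leaves all of these out. Klf2 and Klf4 lay above the median of that list and Klf6 below it, while Klf10 at 0.00 lay near its lowest member, Ier3 at -0.03. The place of Klf2 and Klf4 depended on the detection threshold. At a detection p under 0.05 the median of the list was 2.31, and Klf2 at 2.28 and Klf4 at 2.29 lay just below it. The list was chosen with results of these data known, and its direction is no independent support.

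The path that induces Klf2 and Klf4 in endothelium runs through the kinase ERK5 and the Mef2 factors, which class IIa histone deacetylases hold back. Of 12 genes of that path, 5 had a probe and 4 were detected on both arrays. Of these 4, 0 were at least 2-fold higher or lower, where 2.08% and 0.456% of all genes were. With so few genes, a count of 0 is close to that share. Hdac4, such a deacetylase, differed by 0.04 and Map2k5, the kinase of ERK5, by -0.08. Mef2d differed by -0.12 and the upstream kinase Map3k3 by -0.13. Hdac4, Map2k5 and Mef2d lay near background, at signals of 224, 184 and 198 on the EA array, against 201, 173 and 188 on the Mock array. These are transcript levels, which do not report the activity of a kinase.

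Among 9 endothelial genes known to be under Klf2 and Klf4 control, 7 had a probe and 3 were detected on both arrays. Thbd, the anticoagulant receptor thrombomodulin, had a signal of 352 on the EA array, against 187 on the Mock array, and was 2.63-fold higher. Nos3, the endothelial nitric oxide synthase, had a signal of 212 on the EA array, against 157 on the Mock array, a difference of 0.74. Nqo1, a quinone reductase that many cells express, differed by -0.48. The Mock signals of both Thbd and Nos3 lay near that array's background of 117.1. Vcam1, an adhesion molecule that Klf2 is known to repress, passed detection on the EA array alone. Its signal was 171 on the EA array, against 152 on the Mock array. Its detection p-values of 0.0085 and 0.013 lay on either side of the 0.01 threshold, so this call says little. S1pr1, Edn1 and Sele were detected on neither array. The authors' deposited table gave smaller differences of 0.89 for Thbd and 0.46 for Nos3.

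Some endothelial markers were also higher in EA muscle. Of 14 markers, 11 had a probe and 7 were detected on both arrays, and 3 of these were at least 2-fold higher in EA muscle and 0 as much lower, where 2.08% and 0.456% of all genes were. They were the transcription factor Sox17 at 1.48 and the junction genes Cldn5 at 1.17 and Esam at 1.00, which the authors' deposited table put at 0.96, 0.92 and 0.64. Vwf, Emcn and Tie1 differed by 0.19, 0.21 and 0.13 and Egfl7 by -0.30, while Cdh5, Tek, Flt1 and Sox18 were detected on neither array. Egfl7 lay near background with a non-normalized signal of 176 on both arrays, so its -0.30 arose in background correction and normalization. Some markers on the higher side were dim too. Sox17 and Esam had signals of 413 and 332 on the EA array, against 201 and 204 on the Mock array, whose background was 117.1. Vwf and Tie1 lay near background on both arrays, and Esam only just reached 2-fold. The summed signal of the 11 probes above background was 2208 on the EA array, against 1204 on the Mock array. Fibroblast and matrix markers had a summed signal of 20607 on the EA array, against 11243 on the Mock array, with 5 of 9 at least 2-fold higher, where 2.08% of all genes were. Macrophage and leukocyte markers summed to 1227 on the EA array, against 637 on the Mock array over 8 probes, but did not move together. C1qb differed by 0.90 and C1qc by 0.98, and Mrc1 was detected on the EA array alone. C1qa differed by 0.01, and Ptprc, Cd163 and Adgre1 were detected on neither array. Tyrobp passed detection on the Mock array alone, but lay near background on both. Its signal was 148 on the EA array, against 156 on the Mock array, with detection p-values of 0.041 and 0.0097. Of 3 smooth muscle and pericyte probes only Tagln was detected on both arrays, at 1.17, and Cnn1 and Rgs5 were detected on neither. Erythrocyte markers summed to 32759 on the EA array, against 19889 on the Mock array over 6 probes. Of the 5 detected members 0 were at least 2-fold higher or lower, where 2.08% and 0.456% of all genes were. The globins were higher, Hba-a1 by 0.79, Hbb by 0.70 and Hbb-b1 by 0.89, while Gypc differed by -0.23 and Ahsp by -0.15. Ahsp lay near background, with a non-normalized signal of 168 on the EA array, against 162 on the Mock array, so its sign came from the processing. Adipocyte markers summed to 4567 on the EA array, against 3983 on the Mock array over 5 probes, with Cfd at 0.85 and Fabp4 at -0.11. Of 6 neutrophil markers, S100a8 was detected with the EA sample alone and the others with neither. The signal of S100a8 was 174 on the EA array, against 138 on the Mock array. The part of these cells and of blood in the differences of Klf2, Klf4 and Klf6 was not tested.

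Klf15 is known from mouse muscle to raise genes of branched-chain amino acid breakdown and the glucose transporter GLUT4. Of 11 such genes, 10 had a probe and 8 were detected on both arrays, with a median of -0.10. Of these 8, 0 were at least 2-fold higher or lower, where 2.08% and 0.456% of all genes were. Like Klf15, Slc2a4, which encodes GLUT4, was on the lower side at -0.38, and so was Bcat2, the mitochondrial aminotransferase of branched-chain amino acids, at -0.32. The branched-chain dehydrogenase subunits Bckdha and Bckdhb differed by 0.03 and 0.10. The highest member was the ubiquitin ligase Fbxo32 at 0.80, from dim signals of 265 on the EA array, against 183 on the Mock array. The authors' deposited table gave 0.49 for it.

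Glucocorticoids induce both Klf9 and Klf15, and 15 other genes known to answer to them were set beside the pair. Of these, 13 had a probe and 11 were detected on both arrays, of which 5 were at least 2-fold higher and 0 at least 2-fold lower, where 2.08% and 0.456% of all genes were. Their median was 0.80, against -0.06 for all genes. The 5 were the metallothionein Mt1 at 2.51, the EGF receptor inhibitor Errfi1 at 1.90, the phosphatase Dusp1 at 1.70, the pyruvate dehydrogenase kinase Pdk4 at 1.54 and the kinase Sgk1 at 1.18. All of these also answer to other stimuli, and Dusp1 is in the immediate early list too. Among the other detected members, Fbxo32, which was dim on the Mock array, differed by 0.80. Fkbp5 differed by 0.60, Nfkbia by 0.20, Tsc22d3 by -0.01 and Per1 by -0.22. The lowest member was Ddit4, an inhibitor of mTOR signalling, at -0.58. The receptor gene Nr3c1 and the list member Zbtb16 were detected on neither array. The part of glucocorticoids in these differences was not tested.

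Klf10 is known in TGF-beta signalling, where it represses the inhibitor gene Smad7. Of 13 genes of that pathway 9 had a probe and 6 were detected on both arrays, with a median of -0.08. Of these 6, 0 were at least 2-fold higher or lower, where 2.08% and 0.456% of all genes were. Smad7 was lowest at -0.78, from signals of 168 on the EA array, against 194 on the Mock array that lay near background. The ligand Tgfb2 differed by 0.31 and the corepressor Tgif1 by 0.37. Among 12 cofactors and ubiquitin ligases of Klf proteins 7 had a probe, and all 7 were detected on both arrays, with a median of -0.15. Again 0 were at least 2-fold higher or lower, beside the same 2.08% and 0.456% of all genes. The corepressor Ctbp2 differed by -0.44 and the deacetylase Hdac3 by -0.41, and the ubiquitin ligase Wwp1, which targets Klf2 and Klf5, by 0.17.

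**Figure D3:**
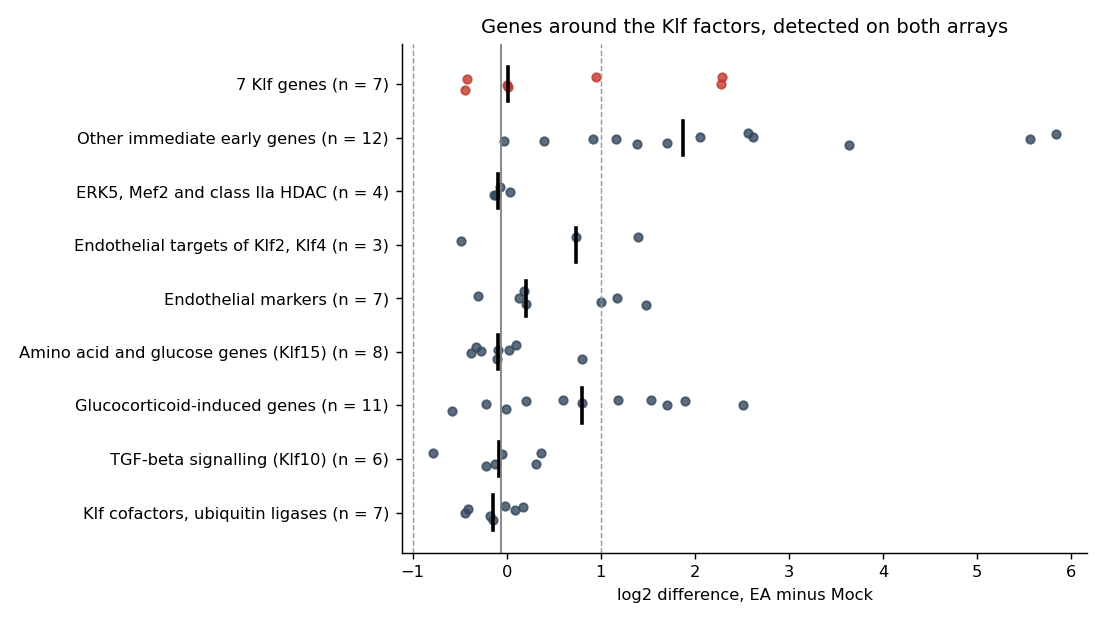
Difference in log2 signal (EA minus Mock) of the 7 Klf genes (red) and of genes around them (dark points), each point 1 gene detected on both arrays and each black bar the median of its row. The grey line is the median of all genes at -0.06 and dashed lines are at 2-fold. The other immediate early genes centre on 1.88 and the glucocorticoid-induced genes on 0.80, while the ERK5, Klf15, TGF-beta and cofactor rows centre near the grey line. The ERK5 row has no point for ERK5 itself, which had no named probe.

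The size of the Klf differences depended on the handling of background and scale, as the plot over processing choices shows, and for the nearly equal members the sign did too. Over the alternatives Klf4 ranged from 1.79 to 2.39, Klf2 from 1.58 to 2.59 and Klf6 from 0.72 to 1.07 (log2, EA minus Mock). Klf15 ranged from -0.58 to -0.33 and Klf5 from -0.55 to -0.29, so both stayed on the lower side in every processing tried. Klf9 ranged from -0.19 to 0.02 and Klf10 from -0.17 to 0.03. Their negative ends came from scaling to the 75th percentile of all probes, which moved the median gene to -0.19. Set against that median, Klf9 lay at -0.00033 and Klf10 at 0.02.

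**Figure D4:**
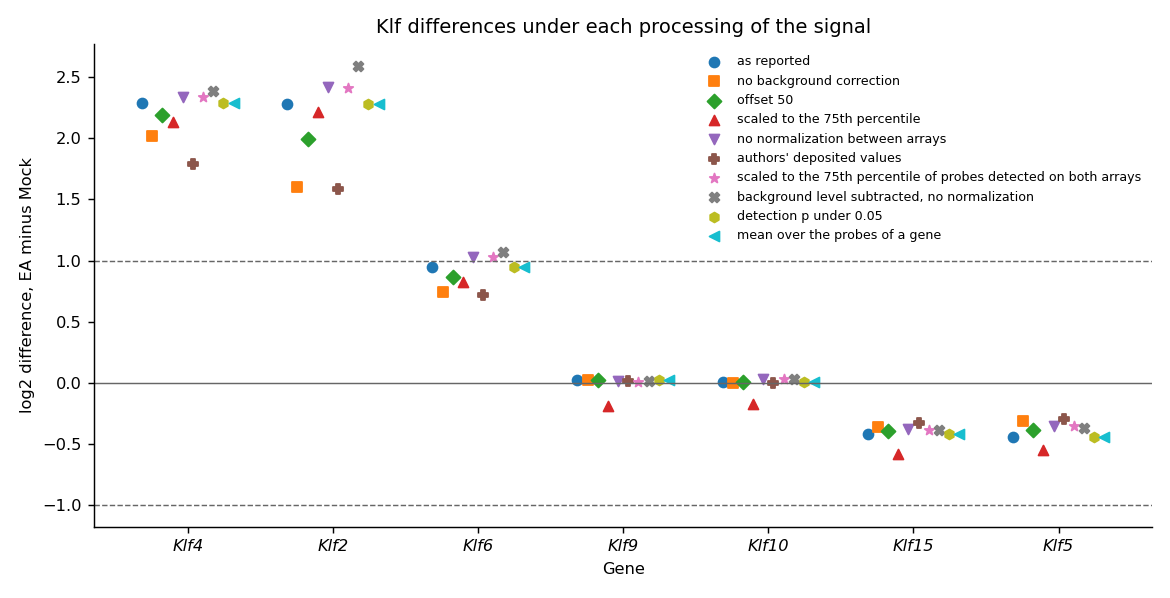
Difference in log2 signal (EA minus Mock) of each Klf gene as reported and under 9 other ways of processing the arrays, with dashed lines at 2-fold. Klf4 and Klf2 stay above the upper line throughout, Klf6 falls on either side of it between 0.72 and 1.07, and Klf15 and Klf5 stay between 0 and the lower line.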

How the data were processed

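Muscle RNA was labelled as biotinylated cRNA for Illumina arrays, per the labels' protocols. The deposited non-normalized table holds linear intensity for 22523 probes and their detection p-value, per the file headers. The sources used here name no scanner software. The authors' deposited series table, also linear intensity, ranks probes as the first does (Spearman rho = 1); its normalization is not stated, and its medians were 137.5 for EA and 137.3 for Mock.

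Background was corrected with limma's nec (detection p-values, offset 16), arrays were quantile normalized and values put on the log2 scale (R 4.3.3, limma 3.58.1, Python 3.11.15, pandas 2.3.3, numpy 2.4.6, matplotlib 3.10.9). Detected means a detection p under 0.01. Symbols were updated by gene identifier against RefSeq (13752 of 13793 named probes; 5 by accession, 36 kept), and each gene took its brightest probe. No test was run with 1 array per group, and this limits the precision. The normalization was tested on simulated data. Members and gene lists were chosen with earlier results of these data known. Genes named from a list were those at least 2-fold different, or otherwise its highest and lowest members. Other list members were named after their values were seen, for their known roles or to give the rest of a list. Of the immediate early list, members already past 2-fold are given as a count. Alternatives are given in the closing section.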

Additional observations from a re-analysis of the deposited data

How the results depend on the processing

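No paired analysis was possible because each group had 1 array. Each value was recomputed under 9 alternatives, 2 of them chosen after seeing the data (scaling to the 75th percentile of probes detected on both arrays, and subtracting the background level with no normalization). No called difference reversed. Of 180 recomputed values 165 moved by less than the probe scatter of 0.25, or for a count stayed within 1.5 times. Part of these could not move. Each Klf member had 1 probe and was detected on both arrays. The looser detection threshold and the mean over probes therefore left the members' values, counts and median as they were. Without background correction Klf2 was at 1.60, Klf4 at 2.02, the median of the endothelial genes under Klf2 and Klf4 control at 0.31 and that of the other immediate early genes at 1.56. In the authors' deposited table these were 1.58, 1.79, 0.46 and 1.53, and the glucocorticoid-induced genes had a median of 0.49. With the background level subtracted Klf2 was at 2.59, the endothelial genes at 1.17 and the glucocorticoid-induced genes at 1.11. An offset of 50 put Klf2 at 1.99. Detection at a p under 0.05 put the endothelial genes at 0.46 and the other immediate early genes at 2.31, since it changed which genes entered. For the other alternatives the cause was not tested. Klf members at least 2-fold higher were 2, or 3 with Klf6 under no normalization (1.03), the added percentile scaling (1.03) and background subtraction (1.07). Over all genes, 105 were at least 2-fold higher and 23 lower. These counts were 53 and 8 without background correction, 47 and 7 in the deposited table, 183 and 25 with the background level subtracted, 91 and 36 scaled to the 75th percentile of all probes, and 123 and 35 at the looser detection threshold. Signal over background limits Klf2 most, at 1.80 times on the Mock array.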
